A study of Mus musculus with 9 samples.

Results

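Mouse morulae carried a small, uneven set of amino acid transporter messages. Of the 58 genes of the SLC1, SLC3, SLC6, SLC7, SLC36 and SLC38 families that were read here, 26 were detected, and 7 of them made up 89.0 percent of the summed level per kilobase. The 58 genes are all rows of the 53819 listed whose symbol begins with Slc1a, Slc3a, Slc6a, Slc7a, Slc36a or Slc38a and a digit, without Slc7a11, Slc38a4 and the rows for pseudogenes and antisense genes. The label of amino acid transporters is not exact for all of them, since the SLC6 family also carries creatine, GABA and monoamines.

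All 9 libraries came from C57BL/6J embryos, made by in vitro fertilization and grown to the morula stage, at which the blastomeres compact before a blastocyst cavity forms. They fell into 3 groups by what the sire had received, namely control, 6% EtOH (6% ethanol below) and 10% EtOH (10% ethanol below), with 3 libraries in each, and the question was whether alcohol taken by the father before conception altered gene expression in his embryos. The ages of the parents, the length of the exposure and the number of embryos or sires behind a library are not given in the sources used here. The p-values set differences between groups against the spread between libraries within groups, and that spread may be technical. A lower level in a whole embryo can reflect fewer cells of a kind or less RNA per cell, which cannot be told apart here. Replicate numbers only name libraries.

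Each library is total RNA counted per gene, with 6263465 to 27619281 counts in all and 3721 to 49872 of them on the 58 genes. Levels are given as CPM, counts scaled to a common library size. The 14 markers of the morula were at 1 CPM or more in all 9 libraries, with a summed level of 1913 to 3204 CPM. Of 14 cumulus and granulosa markers 6 were at 0 counts everywhere, Fshr and Lhcgr among them, and the sum of that list (231 to 550 CPM, rounded) came almost wholly from Nr5a2 (230.4 to 546 CPM), which the early embryo itself expresses. The 7 sperm markers summed to at most 3.52 CPM, and the 11 oocyte markers to 5.92 to 44.8 CPM. In the files of 4 libraries (control 2, 6% ethanol 1, 10% ethanol 1 and 10% ethanol 2) the count column has a long header that names the aligner, and in the other 5 it has a short one. The long-header libraries were also the deeper ones, and levels by header form are given after the sire comparisons.

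Amino acids enter cells through carriers that differ in substrate and in what drives them. SLC1 carriers take up glutamate and aspartate or exchange small neutral amino acids, most SLC6 carriers use the sodium and chloride gradients, SLC7 light chains pair with an SLC3 heavy chain to exchange amino acids across the membrane, SLC7 cationic carriers bring in arginine and lysine, and SLC36 and SLC38 carriers move small neutral amino acids at the surface or out of the lysosome. In preimplantation embryos, amino acids serve as building blocks and fuel, and glycine, betaine, proline and taurine also act as osmolytes that protect cell volume.

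A gene was called detected at 1 CPM or more in at least 3 of the 9 libraries. By that rule 44.8 percent of the 58 genes were detected, against 22.7 percent of all rows. There were 15 genes at 1 CPM or more in every library, 14 with a mean of 10 CPM or more and 6 with a mean of 50 CPM or more. A further 21 genes had some counts but were not detected, and 11 had no count in any library. A count of 0 over all 9 libraries allows up to 0.0219 CPM when 3 counts are taken as the limit, which covers counting error only. The 26 detected genes were also the 26 that passed the filter on low counts and were tested.

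Levels of different genes were compared per kilobase of exon, as CPM divided by the summed length of a gene's exons. On this scale the leading gene was Slc6a8, the creatine transporter, at 56.3 ± 30.3 (SD, n = 9), followed by Slc6a6, the taurine transporter, at 41.6 ± 44.8, and Slc7a6, the light chain y+LAT2, at 35.6 ± 12.0. Then came Slc3a2, the heavy chain 4F2hc, at 29.3 ± 18.7, Slc1a1, the glutamate and aspartate carrier EAAC1, at 25.2 ± 10.98, Slc7a5, the light chain LAT1, at 16.5 ± 7.63, and Slc6a14, the broad carrier ATB0,+, at 8.43 ± 4.21. These 7 genes held 82.2 to 94.7 percent of the summed level per kilobase of the 58 genes in a library. The next gene, Slc38a2, stood at 3.66 ± 2.65. The order among the first 5 is loose: Slc6a8 exceeded Slc6a6 in 6 of 9 libraries, Slc6a6 exceeded Slc7a6 in 4, Slc7a6 exceeded Slc3a2 in 7, and Slc3a2 exceeded Slc1a1 in 5. Further down the gap was clearer, since Slc7a5 exceeded Slc6a14 in 9 of 9 and Slc6a14 exceeded Slc38a2 in 8. Slc6a8 was the highest of the 58 genes in 5 libraries, Slc6a6 in 3 and Slc1a1 in 1. The second place of Slc6a6 by mean came from control 3, without which its mean was 27.5 per kilobase and its rank was 4. By median over the 9 libraries its rank was 2, at 37.2 per kilobase against 36.1 for Slc7a6.

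**Figure D1:**
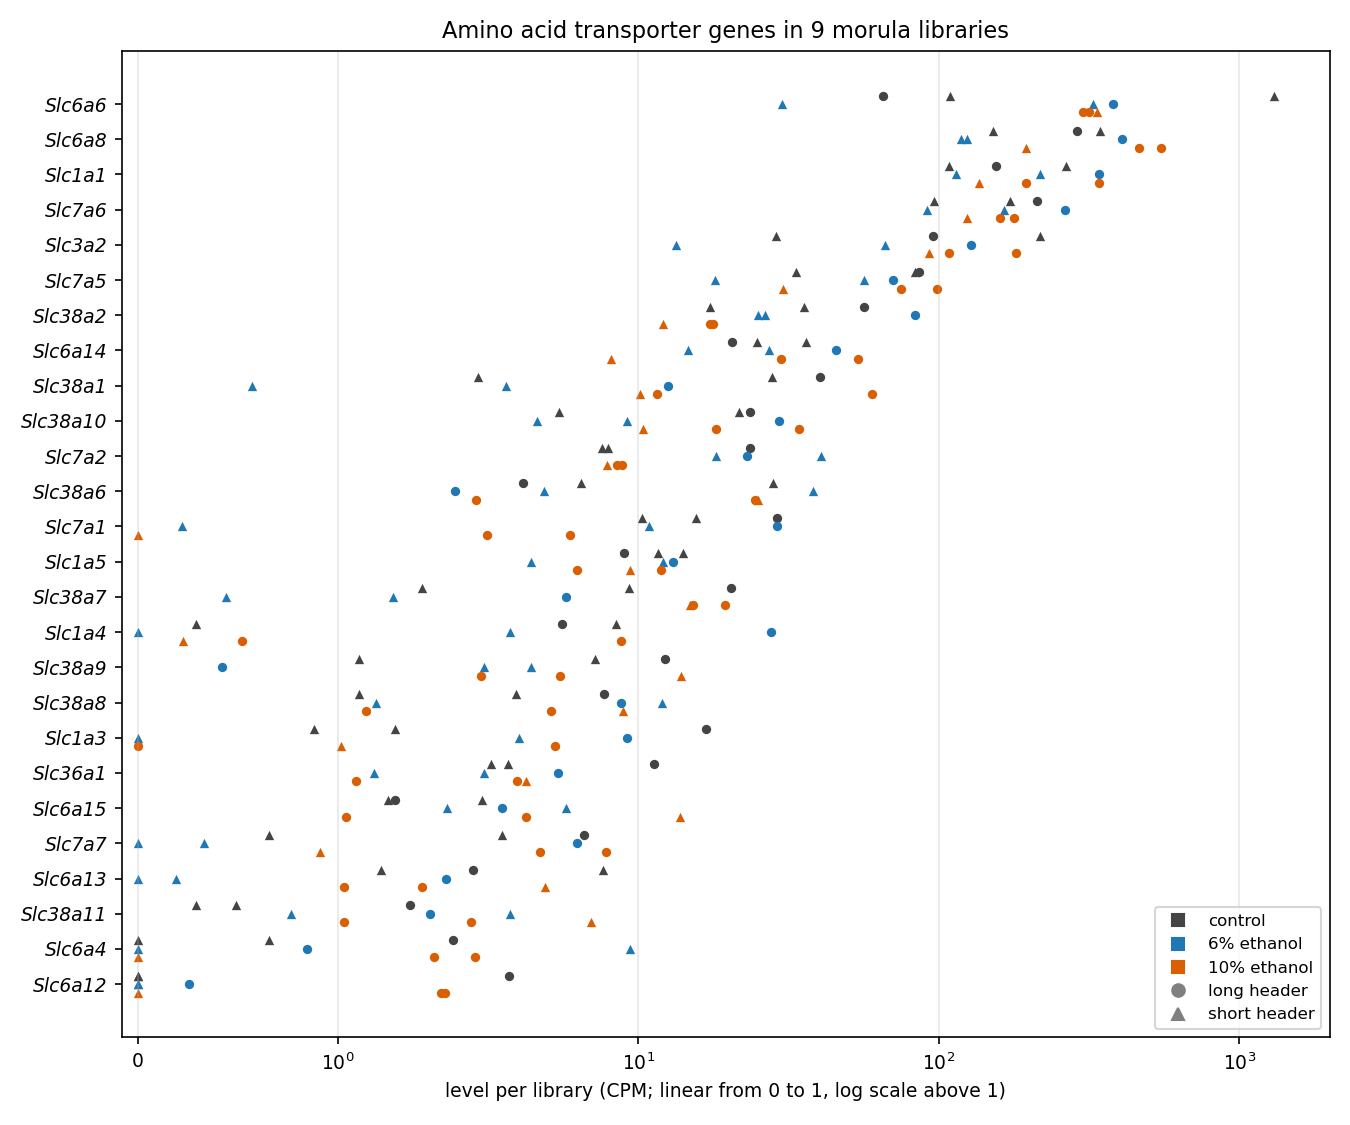
Level of each of the 26 tested transporter genes (rows, in order of mean CPM) in each of the 9 libraries, in CPM on a scale that is linear from 0 to 1 and logarithmic above 1; colour gives the sire group and shape the header form. Slc6a6 reaches 1299.6 CPM in control 3 against 30.2 CPM in 6% ethanol 2, while Slc7a6 stays between 91.1 and 264 CPM.

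The creatine carrier Slc6a8 had 343, 288 and 152 CPM in controls 1 to 3, 406, 119 and 124 CPM in the 6% ethanol libraries, and 463, 550.5 and 195 CPM in the 10% ethanol libraries. The ranges of all 3 groups overlapped, and the 4 long-header libraries (288 to 550.5 CPM) lay above 4 of the 5 short-header ones. The taurine carrier Slc6a6 had 109, 65.1 and 1299.6 CPM in controls, 379, 30.2 and 326 CPM with 6% ethanol, and 315, 302 and 337 CPM with 10% ethanol. Its 10% group was tight (318 ± 17.6 CPM, SD, n = 3), whereas the controls spanned 65.1 to 1299.6 CPM (491 ± 701 CPM). Slc6a14, which takes up neutral and cationic amino acids such as leucine and arginine, had 36.01, 20.5 and 24.8 CPM in controls, 45.4, 27.3 and 14.6 CPM with 6% ethanol, and 29.8, 53.9 and 8.09 CPM with 10% ethanol. Its group means, 27.1, 29.1 and 30.6 CPM, were close together beside within-group SDs of 8.02 to 22.9 CPM.

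Other SLC6 genes were scarce. Slc6a15, a neutral amino acid carrier best known from neurons, ranged from 1.06 to 13.8 CPM and was at 1 CPM or more in all 9 libraries. Slc6a13, a GABA carrier, ranged from 0 to 7.62 CPM, Slc6a4, the serotonin transporter, from 0 to 9.36 CPM, and Slc6a12, a betaine and GABA carrier, from 0 to 3.72 CPM. Slc6a9, the glycine transporter GLYT1 known as the route of glycine uptake in cleavage-stage mouse embryos, had 69 counts in total, was at 0 in 5 libraries and reached at most 1.81 CPM, in control 2. Slc6a20b had 1 count in total and its close relative Slc6a20a none. The Slc6a20 genes are known for SIT1, a carrier of proline and betaine. Slc6a19 and Slc6a7 each reached 1 CPM in a single library (1.98 CPM in 6% ethanol 3 and 1.80 CPM in control 1), as did Slc6a21 (1.72 CPM in 6% ethanol 2). Slc6a16, Slc6a3 and Slc6a18 stayed under 1 CPM, and Slc6a2, Slc6a5, Slc6a11 and Slc6a17 had no count.

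Among the anionic carriers, Slc1a1 was present in every library, with 266, 155 and 108 CPM in controls, 341, 218 and 114 CPM with 6% ethanol, and 195, 340.4 and 136 CPM with 10% ethanol. Each group held a library under 140 CPM and one above 260 CPM, so the groups overlapped throughout. Slc1a3, the carrier GLAST of glia, ranged from 0 CPM in 6% ethanol 3 and 10% ethanol 2 to 16.7 CPM in control 2. Slc1a6 had 2 counts in total, and Slc1a2 and Slc1a7 had none. Of the neutral exchangers, Slc1a5, which exchanges glutamine, had 14.1, 8.96 and 11.6 CPM in controls, 13.1, 4.39 and 12.1 CPM with 6% ethanol, and 11.9, 6.25 and 9.35 CPM with 10% ethanol. Its coefficient of variation over the 9 libraries, 0.317, was the lowest of the 14 transporter genes at 10 CPM or more. Its relative Slc1a4 was erratic, at 8.41, 5.56 and 0.293 CPM in controls, 27.7, 0 and 3.74 CPM with 6% ethanol, and 0.523, 8.74 and 0.228 CPM with 10% ethanol.

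Heteromeric exchangers need a heavy chain to reach the membrane, and only 1 of the pair of heavy chains was present. Slc3a2 had 218, 95.9 and 28.7 CPM in controls, 128, 13.4 and 66.0 CPM with 6% ethanol, and 180.1, 108 and 92.5 CPM with 10% ethanol, which is 16.3-fold between the highest and the lowest library. Slc3a1, the heavy chain rBAT, had no count, and its light chain Slc7a9 had 40 counts in total and at most 0.720 CPM. The light chains of Slc3a2 that were read here, without Slc7a11, were led by Slc7a6. It had 96.5, 213 and 173 CPM in controls, 264, 91.1 and 165 CPM with 6% ethanol, and 159.8, 178 and 124 CPM with 10% ethanol. Its coefficient of variation was 0.337, lower than in all but 11.5 percent of the tested genes at 10 CPM or more. Slc7a6os, a gene named for lying on the strand opposite to Slc7a6, had 14.7 to 147 CPM, and without a stated strand setting reads of the overlap cannot be assigned between these genes. Slc7a5 had 83.3, 85.8 and 33.6 CPM in controls, 70.5, 56.5 and 17.9 CPM with 6% ethanol, and 98.9, 75.0 and 30.2 CPM with 10% ethanol. Per kilobase Slc7a6 lay above Slc7a5 in 8 of 9 libraries, by a median ratio of 2.01. Slc7a7, the light chain y+LAT1, reached at most 7.82 CPM, and Slc7a8, the light chain LAT2, at most 1.41 CPM. Slc7a10 had 2 counts and Slc7a15 17 counts in total, and Slc7a12 and Slc7a13 had none.

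The balance of heavy and light chains varied widely from library to library. Per kilobase, Slc3a2 stood at 0.108 of the sum of Slc7a5, Slc7a6, Slc7a7 and Slc7a8 in 6% ethanol 2, at 0.170 in control 3 and at 1.41 in control 1, with a median of 0.462. The summed light chains moved less, from 35.2 to 78.6 per kilobase, while Slc3a2 moved from 3.79 to 61.7. In the 10% group the ratio was 0.809, 0.497 and 0.736, and the controls spanned 0.170 to 1.41.

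**Figure D2:**
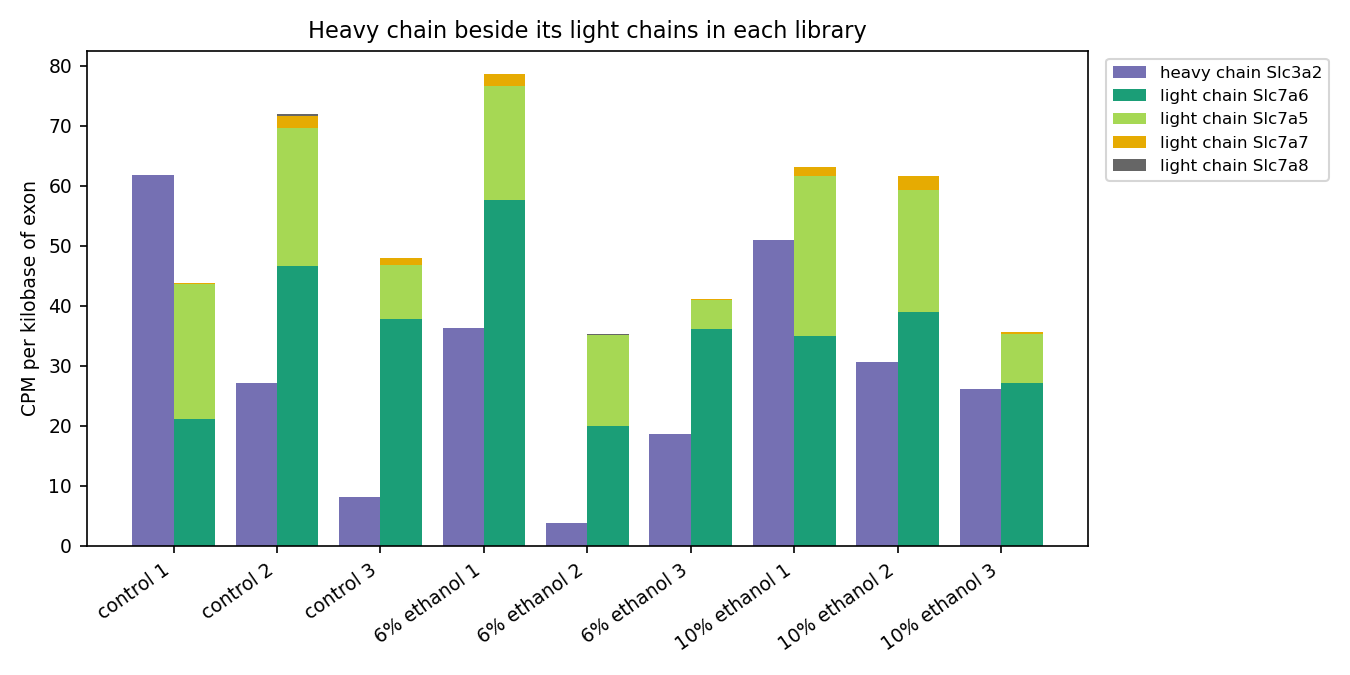
Level of the heavy chain gene Slc3a2 (left bar) and of the light chain genes Slc7a6, Slc7a5, Slc7a7 and Slc7a8 (right bar, stacked) in each library, in CPM per kilobase of exon. The heavy chain exceeds the sum of the light chains drawn, which leave out Slc7a11, in control 1 alone. It is lowest in 6% ethanol 2 at 3.79.

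The cationic carriers were modest. Slc7a1, the arginine and lysine carrier CAT1, had 10.3, 28.9 and 15.5 CPM in controls, 28.8, 10.9 and 0.220 CPM with 6% ethanol, and 3.14, 5.92 and 0 CPM with 10% ethanol. Slc7a2, the carrier CAT2, had 7.59, 23.4 and 7.92 CPM in controls, 23.0, 40.7 and 18.1 CPM with 6% ethanol, and 8.83, 8.52 and 7.87 CPM with 10% ethanol. All 3 libraries of the 10% group were therefore lower than every control for Slc7a1, and lower than every 6% library for Slc7a2. Slc7a3 was at 1 CPM or more in controls 1 and 2 only, at 3.10 and 1.45 CPM, Slc7a14 reached 4.40 CPM in 6% ethanol 3, and Slc7a4 had 4 counts in total.

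Of the 10 SLC38 genes read, 8 were detected. Slc38a2, the system A carrier SNAT2, had 35.7, 56.5 and 17.3 CPM in controls, 83.5, 25.01 and 26.3 CPM with 6% ethanol, and 17.7, 17.3 and 12.1 CPM with 10% ethanol. Slc38a1, the system A carrier SNAT1, had 27.8, 40.1 and 2.93 CPM in controls, 12.5, 0.573 and 3.63 CPM with 6% ethanol, and 11.6, 59.9 and 10.1 CPM with 10% ethanol, a span of 105-fold. Its lowest level, in 6% ethanol 2, was 3 counts, so the size of that span is not resolved. The 6% libraries at 0.573 and 3.63 CPM for Slc38a1 lay above the whole 10% group for Slc38a2, and per kilobase Slc38a2 exceeded Slc38a1 in 8 of 9 libraries. Slc38a7, a lysosomal glutamine exporter, had 9.31, 20.4 and 1.91 CPM in controls, 5.76, 1.53 and 0.440 CPM with 6% ethanol, and 15.2, 19.4 and 14.8 CPM with 10% ethanol, so that the lowest 10% library lay above the highest 6% library.

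Slc38a10 had 21.6, 23.6 and 5.42 CPM in controls, 29.5, 4.58 and 9.14 CPM with 6% ethanol, and 18.2, 34.2 and 10.4 CPM with 10% ethanol. Slc38a6 had 28.1, 4.12 and 6.45 CPM in controls, 2.46, 38.2 and 4.84 CPM with 6% ethanol, and 2.87, 24.5 and 25.1 CPM with 10% ethanol, so each group held both low and high libraries. Slc38a9, the lysosomal arginine sensor and carrier that signals to mTORC1, ranged from 0.423 to 13.9 CPM, Slc38a8 from 1.17 to 12.0 CPM and Slc38a11 from 0.293 to 6.95 CPM. Slc38a5 was counted in 10% ethanol 2 alone (1.97 CPM), and Slc38a3 reached at most 0.980 CPM. Of the proton-coupled family, Slc36a1, a lysosomal and surface carrier of small neutral amino acids, ranged from 1.15 to 11.3 CPM, Slc36a4 reached 1.19 CPM, Slc36a3 0.439 CPM, and Slc36a2 had 1 count.

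By class, the light chains held 17.2 to 32.1 percent of the summed level per kilobase in a library. The group of monoamine, GABA and creatine carriers, which is almost wholly Slc6a8, held 11.7 to 33.5 percent. The SLC6 carriers of amino acids, betaine and taurine held 6.88 to 59.1 percent, the upper end being control 3. Heavy chains held 2.99 to 24.3 percent, glutamate and aspartate carriers 4.85 to 22.3 percent, and SLC38 carriers 1.74 to 9.45 percent. Neutral exchangers, cationic carriers and proton-coupled carriers held at most 3.08, 4.49 and 0.892 percent.

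**Figure D3:**
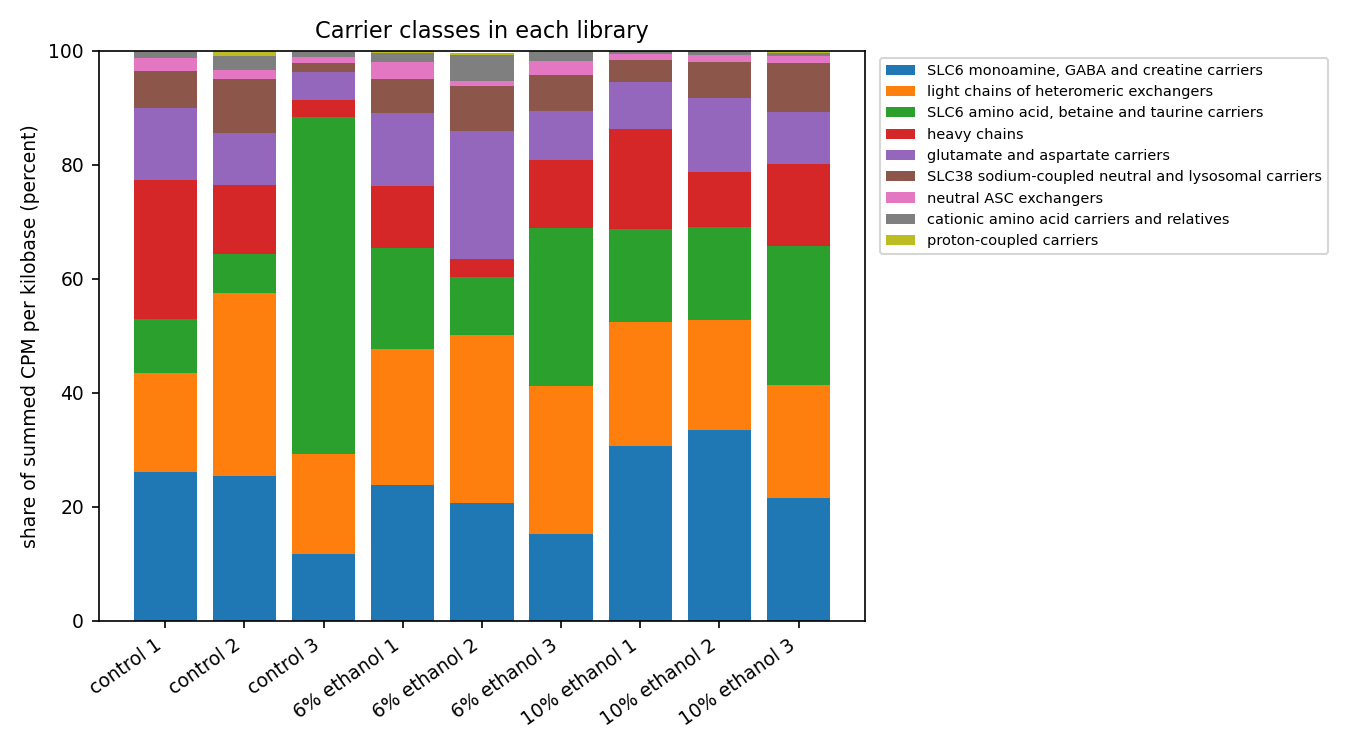
Share of the summed CPM per kilobase of the 58 genes that each carrier class (colours) holds in each library (bars), in percent; Slc6a21, in no class, is not drawn. Control 3 stands apart through its taurine carrier, with 59.1 percent for SLC6 carriers of amino acids, betaine and taurine (green) against 6.88 to 27.7 percent in the other libraries.

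The spread over the 9 libraries was large for these genes, as it was for others. Over the 14 transporter genes at 10 CPM or more the median coefficient of variation was 0.626, from 0.317 for Slc1a5 to 1.08 for Slc6a6, beside 0.584 over the 7125 tested genes at 10 CPM or more.

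In morulae of 6% ethanol sires no transporter gene differed from control beyond the spread between libraries. By edgeR's quasi-likelihood test with Benjamini-Hochberg adjustment, 0 of the 26 passed at 0.05 (smallest adjusted p = 0.822), beside 0 percent of the 12488 genes tested. None had an unadjusted p under 0.05 (6.24 percent of all genes did), and for none did the groups fail to overlap (8.06 percent of all genes). Fitted differences were above 0 for 11 of 26 (49.5 percent of all genes). Their median was -0.25 (log2), beside -0.01 over all genes, and 0.08 without control 2. The median standard error over the 26 was 1.15, so single differences of this size are not resolved. Of the 5 genes of smallest p, Slc38a7 had a mean of 2.57 ± 2.81 CPM against 10.5 ± 9.30 in controls (log2 fold change -2.01 ± 1.13 SE), and Slc38a1 had 5.58 ± 6.21 against 23.6 ± 18.9 CPM (-2.06 ± 1.21). Slc6a13 had 0.826 ± 1.27 against 3.94 ± 3.27 CPM (-2.18 ± 1.59), and Slc7a2 27.3 ± 11.9 against 13.0 ± 9.06 CPM (1.06 ± 0.78). For Slc6a12, at 0.0847 ± 0.147 against 1.24 ± 2.15 CPM (-3.49 ± 2.31), a single library, control 2, held all control counts, and without it the fitted value was 3.65, set against controls at 0 counts and so no measure of size. The other 4 values also moved when single libraries were left out, with no change of sign. Without 6% ethanol 1 they were -3.48 for Slc38a7, -3.49 for Slc38a1 and -5.45 for Slc6a13, and without control 2 they were -1.10 for Slc38a7 and 1.81 for Slc7a2. In 6% ethanol 2 and 3 Slc6a13 had 1 and 0 counts, so its -5.45 is no measure of size. Slc38a7 had 8 and 4 counts in these libraries, and Slc38a1 had 3 and 33. Slc6a13 was -1.30 without control 3, and Slc7a2 was 0.65 without 6% ethanol 2. Within header form the Slc7a2 difference was -0.022 for long and 1.90 for short headers, and that of Slc38a7 was -1.82 and -2.54. The long-header values set 6% ethanol 1 alone against control 2 alone.

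At 10% ethanol, again 0 of 26 transporter genes passed against the same controls (smallest adjusted p = 0.9999 by edgeR, 0 percent of all genes), and 0 had an unadjusted p under 0.05 (2.14 percent of all genes). Slc7a1 was the 1 gene whose groups did not overlap (8.06 percent of all genes), with 3.02 ± 2.96 CPM against 18.2 ± 9.58 in controls (log2 fold change -2.58 ± 1.55 SE, unadjusted p = 0.122). A share of 1 in 26, or 3.85 percent, is below that background. Within long-header libraries, where control 2 is the only control, the value for Slc7a1 was -2.67, and the single short-header 10% library was at 0 counts. Slc38a2 had 15.7 ± 3.13 CPM against 36.5 ± 19.6 (-1.22 ± 0.71), with control 3 inside the range of the 10% group. Slc6a8, among the 5 genes of smallest p, had 403 ± 185 against 261 ± 98.5 CPM (0.63 ± 0.60). Its difference was 0.06 with header form as a term, 0.81 in long-header libraries and -0.35 in short-header ones. The long-header value rests on control 2 alone for the controls, and the short-header value on 10% ethanol 3 alone for the 10% group. Slc38a11, at 3.59 ± 3.04 against 0.839 ± 0.781 CPM (2.05 ± 1.34), and Slc6a15, at 6.36 ± 6.63 against 2.01 ± 0.874 CPM (1.65 ± 1.19), had smaller p than Slc6a8. Both were highest in 10% ethanol 3, without which their values were 1.16 and 0.40. Without control 2 the values were -0.75 for Slc38a2 and 3.15 for Slc38a11, and that for Slc6a8 ran from 0.33 without 10% ethanol 2 to 0.97 without 10% ethanol 3. Fitted differences were above 0 for 16 of 26 (47.1 percent of all genes), with a median of 0.16. That median was -0.01 with library size alone as the scaling, -0.30 without control 3 and -0.38 with header form as a term.

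Between the doses the genes with the smallest p were Slc38a7, higher with 10% ethanol, and Slc7a2 and Slc38a2, lower, though no gene passed. For 10% against 6% ethanol, 0 of 26 passed by edgeR (smallest adjusted p = 0.806, 0 percent of all genes), 1 had an unadjusted p under 0.05 (5.33 percent of all genes), and for 3 the groups did not overlap (11.5 percent of the 26, beside 9.66 percent of all genes). Slc38a7 had 16.5 ± 2.57 CPM with 10% and 2.57 ± 2.81 with 6% ethanol (log2 fold change 2.65 ± 1.16 SE, unadjusted p = 0.0404). Slc7a2 had 8.41 ± 0.493 and 27.3 ± 11.9 CPM (-1.69 ± 0.79, 0.0526), and Slc38a2 15.7 ± 3.13 and 44.9 ± 33.4 CPM (-1.52 ± 0.72, 0.0560). Slc38a1 had 27.2 ± 28.3 and 5.58 ± 6.21 CPM (2.27 ± 1.21), with overlap, and Slc6a12 1.49 ± 1.29 and 0.0847 ± 0.147 CPM (3.73 ± 2.33). For Slc6a12 the 6% mean rests on 6 counts in 6% ethanol 1, and 10% ethanol 3 had 0 counts. Without 6% ethanol 1 the value for Slc38a7 was 4.11, that for Slc38a2 -0.68 and that for Slc38a1 3.69, and without 10% ethanol 2 that for Slc38a1 was 0.94. In 6% ethanol 2 and 3 Slc38a7 had only 8 and 4 counts, and Slc38a1 had 3 and 33. In long-header libraries the values for Slc38a7, Slc7a2 and Slc38a2 were 1.58, -1.42 and -2.26, and in short-header libraries 3.93, -1.88 and -1.08. The 6% group is 6% ethanol 1 alone among long headers, and the 10% group is 10% ethanol 3 alone among short ones. DESeq2 called none of the 26 in this comparison either. It gave an unadjusted p under 0.05 to 4 of them, Slc7a2, Slc38a7, Slc38a1 and Slc38a2, and to 1124 of all 12488 genes tested. Fitted differences were above 0 for 15 of 26 (49.5 percent of all genes), with a median of 0.29, which was -0.06 without 10% ethanol 3.

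For both ethanol groups together against control, 0 of 26 passed (smallest adjusted p = 0.9995 by edgeR, 0 percent of all genes), 0 had an unadjusted p under 0.05 (4.08 percent) and 0 were without overlap (1.79 percent). Fitted differences were above 0 for 12 of 26 (48.6 percent of all genes), and their median, -0.21, turned to 0.24 when control 2 was left out. The 5 genes of smallest p were Slc38a11 (log2 fold change 1.70 ± 1.22 SE), Slc7a1 (-1.51 ± 1.22), Slc6a15 (1.29 ± 1.06), Slc6a13 (-1.39 ± 1.27) and Slc36a1 (-0.93 ± 0.93). Slc7a1 had 8.16 ± 10.9 CPM over the 6 ethanol libraries, of which 6% ethanol 1 (28.8 CPM) and 6% ethanol 2 (10.9 CPM) lay within the range of the controls. Without control 2 the values were -1.003 for Slc7a1, 2.79 for Slc38a11 and -0.11 for Slc36a1. That for Slc6a13 was -3.02 without 6% ethanol 1 and -0.50 without control 3, and that for Slc6a15 was 0.66 without 10% ethanol 3. The -3.02 is no measure of size, since 6% ethanol 2 and 3 had 1 and 0 counts of Slc6a13.

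**Figure D4:**
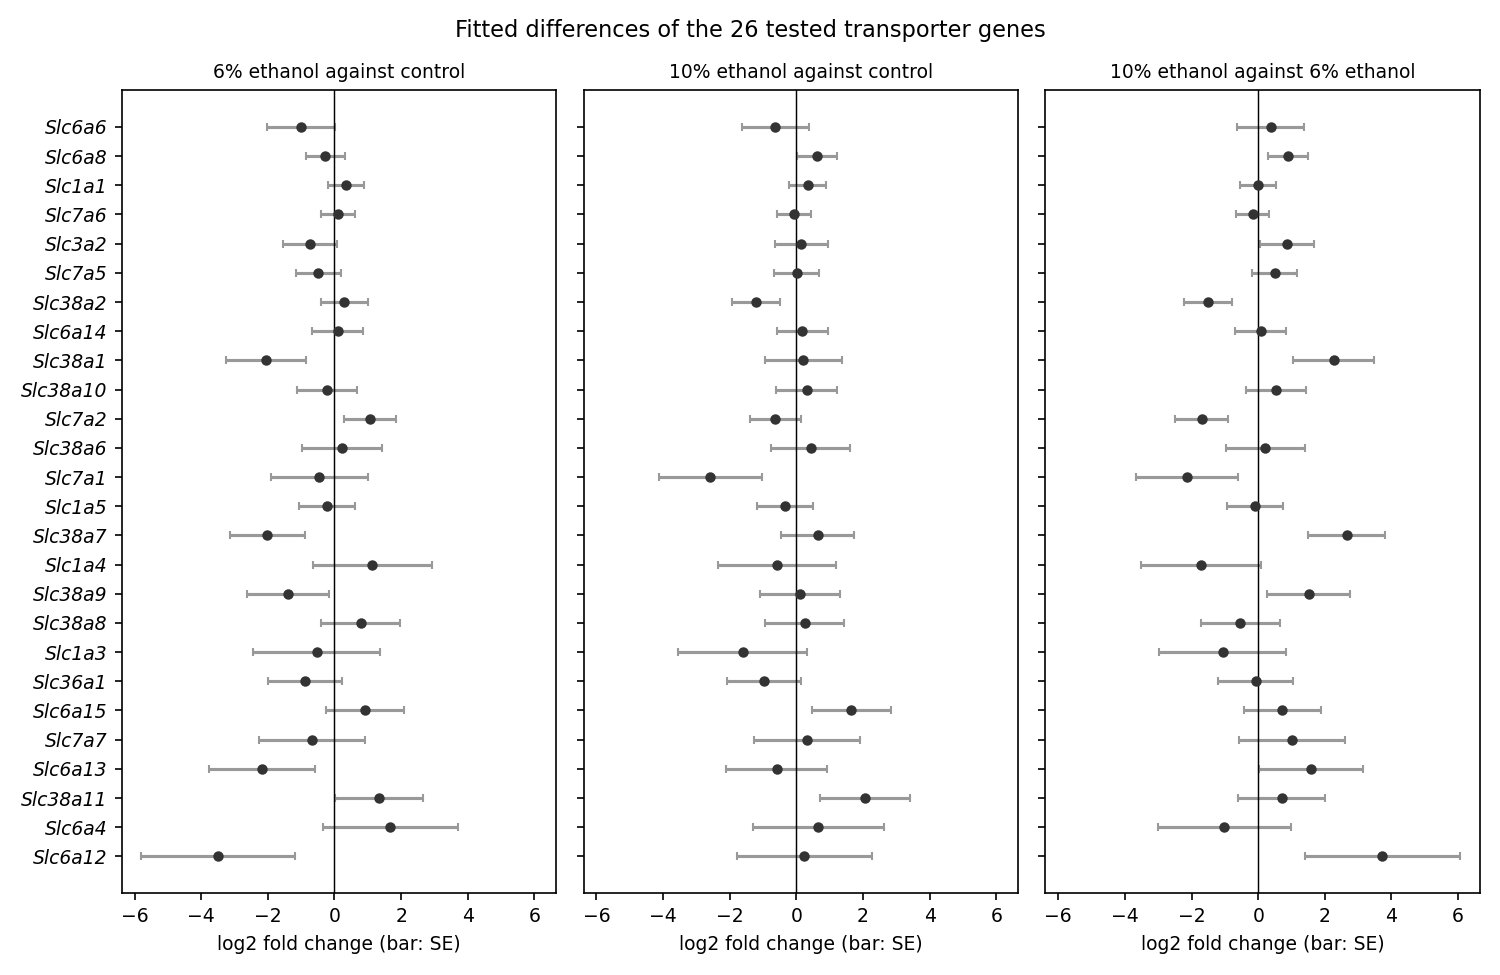
Fitted log2 fold change of each of the 26 tested transporter genes (rows) in 3 comparisons of sire groups, with the standard error as a bar. Points lie on both sides of 0 in each comparison, and the values range from -3.49 to 3.73, both for the sparsely counted Slc6a12.

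Levels of many transporter genes were higher in long-header libraries, although none of the 26 passed. With sire group as a term, long-header libraries were above short-header ones for 21 of the 26 genes (53.2 percent of all genes), with a median log2 difference of 0.88 beside 0.10 over all genes. By edgeR 0 of 26 passed (smallest adjusted p = 0.157), beside 0.104 percent of all genes. An unadjusted p under 0.05 was found for 5 (19.2 percent, beside 14.8 percent of all genes), all higher in long-header libraries, and for 2 the forms did not overlap (7.69 percent, beside 9.07 percent). Slc6a8 had 427 ± 110.1 CPM (SD, n = 4) in long-header and 187 ± 92.6 CPM (n = 5) in short-header libraries (1.16 ± 0.41 SE). Slc7a7 had 6.33 ± 1.28 and 1.08 ± 1.40 CPM (3.23 ± 1.20), Slc38a1 31.0 ± 23.4 and 9.01 ± 11.1 CPM (1.93 ± 0.87), and Slc38a2 43.7 ± 32.2 and 23.3 ± 9.04 CPM (1.11 ± 0.49). Slc6a12 had 213 counts in the 4 long-header libraries and 0 in the 5 short-header ones. Pooled over libraries, that is at least 30.6-fold higher when 3 counts over the short-header libraries are taken as the limit. This bound covers counting error only and not the spread between libraries. Control 2 held 103 of the counts and 6% ethanol 1 held 6. The latter, at 0.254 CPM, lay under the 0.272 CPM that 3 counts make in control 1. The sources used here do not say what the header form stands for.

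Genes that handle amino acids beside these carriers were read from lists. Of 22 other amino acid carriers, 14 were tested and none passed in any of the 4 sire comparisons. The highest in CPM were Slc25a44, a mitochondrial carrier of branched-chain amino acids (255.7 to 557 CPM), Slc25a38, a mitochondrial glycine carrier (30.6 to 180.2 CPM), the aspartate and glutamate carrier Slc25a12 (8.25 to 41.4 CPM) and the lysosomal carrier Slc15a4 (2.86 to 68.7 CPM). Of the partner proteins, Bsg, a chaperone of membrane carriers, was at 40.5 to 234 CPM (log2 fold change -1.22 ± 0.56 SE at 6% ethanol, adjusted p = 0.799 by edgeR), Arl6ip5, a modulator of Slc1a1, at 0.764 to 29.5 CPM, and Cltrn, a partner of SLC6 carriers in the kidney, reached 0.220 CPM.

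In the list of the amino acid deprivation response, which is run by the kinase GCN2 and the factor ATF4, 10 of 13 tested genes lay below 0 at 6% ethanol (median log2 fold change -0.79) and 10 of 13 at 10% ethanol (median -0.82), against medians of -0.01 and -0.05 over all genes. Of all genes tested, 50.5 percent lay below 0 at 6% ethanol and 52.9 percent at 10% ethanol. These comparisons share their controls, no gene of the list passed, and none had an unadjusted p under 0.05. Of the tested genes, Atf4, Psph, Trib3, Ddit3, Nupr1 and Vldlr were highest in control 1 of the 9 libraries, and the others were not. Atf4 had 373 CPM there against 176 and 47.1 in controls 2 and 3, and Psph 181 against 28.1 and 33.3 CPM. The list was not refitted with single libraries left out, so how far these medians rest on control 1 was not tested. Its highest genes were Psat1, an enzyme of serine synthesis (680 to 2351 CPM, rounded), Ddit4 (37.7 to 451 CPM), Atf4 (47.1 to 373 CPM) and Phgdh (42.7 to 186 CPM). Of 23 genes that sense amino acids upstream of mTORC1, 21 were tested and none passed. In each sire comparison 1 or 2 of them, from Lamtor2, Fnip2 and Lamtor4, had an unadjusted p under 0.05 by edgeR (2.14 to 6.24 percent of all genes did). Lamtor2, a subunit of the Ragulator scaffold named here after its values were seen, ran from 0.798 to 48.7 CPM, the highest being control 1 (-2.69 ± 1.12 SE at 6% and -3.60 ± 1.16 at 10% ethanol, adjusted p = 0.799 and 0.9999 by edgeR). Rragd (124 to 465 CPM), Sesn2 (32.8 to 363 CPM), Rragc (30.7 to 219 CPM) and Lamtor3 (51.7 to 213 CPM) were the highest in CPM. Of 22 genes of amino acid breakdown and conversion, 21 were tested and none passed. In each sire comparison 0 to 2 of them had an unadjusted p under 0.05 by edgeR (2.14 to 6.24 percent of all genes did). These were Gcsh at 6% ethanol (log2 fold change 1.44 ± 0.51 SE) and Gcsh and Prodh for both groups against control (1.04 ± 0.45 and -2.16 ± 0.94). For 10% against 6% ethanol they were Got2 (-1.67 ± 0.64) and Glud1 (-1.01 ± 0.42). Gldc, the decarboxylase of the glycine cleavage system, had 2453 to 5841 CPM, its partner Gcsh 411 to 3618 CPM, the branched-chain aminotransferase Bcat1 320.2 to 3992 CPM, and Odc1, the first enzyme of polyamine synthesis, 707 to 2602 CPM.

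Promoters were scanned for the core of the element through which ATF4 and its C/EBP partners act on amino acid genes, written TGATGNAA and read on both strands. RefSeq windows of 300 bases, from 250 before to 50 after a transcript start (build GRCm38.p6), were matched for 41 of the 58 genes. Of these 3, or 7.32 percent, held the letters, beside 4.51 percent of all 27025 genes with a window. They were Slc1a4, Slc7a7 and the barely counted Slc6a21. The 2 detected genes are shown with the matching letters in capitals, since they are the detected carriers that hold them. Slc7a7 has a second, overlapping window, which is not printed. The Slc1a4 window lies at chr11:20332664-20332963 and the Slc7a7 window at chr14:54417895-54418194, both on the minus strand and printed in the direction of the gene.
Slc1a4: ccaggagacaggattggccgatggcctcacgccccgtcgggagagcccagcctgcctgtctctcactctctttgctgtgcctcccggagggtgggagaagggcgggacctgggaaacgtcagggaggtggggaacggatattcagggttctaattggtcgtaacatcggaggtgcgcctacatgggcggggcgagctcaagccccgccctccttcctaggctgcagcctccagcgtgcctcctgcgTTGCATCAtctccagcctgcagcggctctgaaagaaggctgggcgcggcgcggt
Slc7a7: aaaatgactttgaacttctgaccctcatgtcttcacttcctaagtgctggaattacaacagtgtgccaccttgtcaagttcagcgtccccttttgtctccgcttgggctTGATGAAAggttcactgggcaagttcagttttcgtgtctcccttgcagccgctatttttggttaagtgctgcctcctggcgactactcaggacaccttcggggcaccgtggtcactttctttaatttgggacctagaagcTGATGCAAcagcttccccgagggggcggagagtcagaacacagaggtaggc
In Slc1a4 the match TTGCATCA starts 4 bases before the transcript start. In Slc7a7 one match, TGATGAAA, starts 141 bases before it and the other, TGATGCAA, 1 base before it. A match is a description of the letters and not of a bound site. The windows of Slc3a2, Slc7a6 and Slc1a1 do not hold these letters, and Slc6a8, Slc6a6 and Slc7a5 were not among the genes matched.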

How the data were processed

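RNA of 9 libraries was analysed, 3 for each sire group. The deposited values are raw counts, 1 file per library. The submitters' processing notes name featureCounts, DESeq2 and build GRCm39. In 4 files the header names RNA STAR, per the file headers; otherwise the aligner, the annotation, the strand setting and all versions are not given in the sources used here.

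Genes were filtered with filterByExpr (12488 left) and scaled with TMM factors over them. The 3 groups were fitted together over all libraries with edgeR 4.0.16 (R 4.3.3) by quasi-likelihood, with Benjamini-Hochberg adjustment over all tested genes and a threshold of 0.05. Standard errors came from the fold change and its F statistic. DESeq2 1.42.0 and limma 3.58.1 were alternatives, as were other scaling, filters, sets of libraries and header form. Fits within header form were added after the data were seen. They hold groups of a single library: control 2 and 6% ethanol 1 among long headers, and 10% ethanol 3 among short ones. The fits were tested on simulated data. Exon lengths are from GENCODE M21 (GRCm38), which is not the authors' build, so levels per kilobase are approximate and no coordinates of it are mixed with the counts. Of 59 promoter windows of the genes read, the last bases of 45 were found in sense in a GENCODE transcript of the gene. The reverse complement of the first bases was found in such a transcript for 0 windows.

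Values in every library were given for genes with a mean of 10 CPM or more and for lower genes paired with or related to them. Per comparison, fold changes were given for 5 genes with the lowest p, and for any with unadjusted p under 0.05 or groups without overlap, where a group mean reached 1 CPM. Of other lists, up to 4 genes of highest mean CPM were named. Genes of these lists with an unadjusted p under 0.05 in a sire comparison were added after the values were seen. The genes read, the lists and the rules were chosen with earlier results of these data known.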

Additional observations from a re-analysis of the deposited data

How the results depend on the processing

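None of the 26 transporter genes was called in any of the 4 comparisons of sire groups under any alternative run, including leaving out each library (0 to 0). Of 437 values of 25 named differences under alternatives, 434 kept their direction and stayed uncalled. The 3 that changed direction were Slc6a12 at 6% ethanol without control 2 (3.65, in a range of -7.23 to 3.65 as single libraries were left out), Slc7a2 at 6% ethanol in long-header libraries (-0.022) and Slc6a8 at 10% ethanol in short-header libraries (-0.35). The median over the transporter genes was less stable: at 10% ethanol it was -0.38 with header form as a term, and at 6% ethanol it ran from -1.23 to 0.08 as single libraries were left out. Over all genes, where edgeR called 0 in each sire comparison, the counts for 6% against control, 10% against control, 10% against 6% and both against control were 31, 10, 34 and 17 by DESeq2, 140, 47, 147 and 153 with no filter beyond 1 count, 3, 9, 4 and 13 in long-header and 48, 2, 1 and 5 in short-header libraries. At an unadjusted p under 0.05 edgeR had 779, 267, 665 and 509 genes. Leaving out single libraries gave 0 in each of these comparisons. Between header forms 13 genes were called, 56 without the sire term, and 0 to 30 as single libraries were left out: 30 without control 1, 1 without control 2, 10% ethanol 1 or 10% ethanol 2, and 0 without any of the other 5. The cause of these moves was not tested.

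At 1 CPM in all 9 libraries 15 transporter genes were detected rather than 26, at 5 CPM in 3 libraries 20, and 25 to 26 as single libraries were left out. Of the 10 highest genes per kilobase, 9 to 10 remained in each alternative. No paired analysis was possible because the replicate numbers 1 to 3 were given here in accession order, and the labels themselves hold no number that ties a library of 1 group to one of another. Depth limits the low genes: 3 counts are 0.479 CPM in the smallest library and 0.109 CPM in the largest.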
